A study of Canis lupus familiaris with 26 samples.

Results

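Basement membrane collagens and EGFLAM were followed through the stroma of canine simple mammary adenoma, pair by pair. The group comprised 4 genes, COL4A1 (ENSCAFG00000006062), COL4A2 (ENSCAFG00000006069), COL15A1 (ENSCAFG00000002525) and EGFLAM (ENSCAFG00000018666), out of 18466 genes in the count table, of which 4544 had enough counts to be tested. They were picked by name as basement membrane genes that already stood out between adenoma-associated stroma (AAS) and normal stroma in these same samples. Their levels and fold changes in that comparison are therefore given as a description, without a p-value. All 4 were among the 4544 tested genes.

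The samples came from female dogs aged 6 to 13 years with spontaneous simple adenoma, which is a benign tumour of mammary epithelium, removed by surgery. From each formalin-fixed, paraffin-embedded (FFPE) specimen, 4 to 29 months after excision, AAS and matched normal stroma were isolated by laser-capture microdissection and total RNA was sequenced (RNAseq). The labels name the AAS samples cancer-associated stroma, although the tumour is benign. Normal stroma was taken next to unaltered mammary glands of the same tumour-bearing dogs and not from healthy animals. Of 13 pairs, 12 were compared. Pair 14 was left out because its normal stroma sample held only 83727 counts, a choice that follows the published methods.

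The basement membrane is the thin sheet of matrix on which epithelial and endothelial cells rest and which also wraps muscle, fat and nerve cells. Its backbone is a network of collagen IV, most often built from α1 and α2 chains that are encoded head to head by COL4A1 and COL4A2 and share a promoter region. Collagen XV, encoded by COL15A1, sits on the outer face of the membrane, where it links it to the fibrillar collagen of the interstitium. EGFLAM encodes pikachurin, a secreted protein with EGF-like and laminin G domains that binds dystroglycan and is best known from the photoreceptor synapse. In the mammary gland the membrane separates the epithelium from the stroma and surrounds the capillaries within it.

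Total counts ranged from 419770 to 1614120 in the 12 AAS samples and from 759119 to 1602797 in the 12 normal stroma samples, and between 1220 and 7744 genes per sample reached 10 counts. A count of 3, taken as the smallest level a sample can show, stood for 1.86 to 7.15 CPM (counts scaled to a common library size) in AAS and for 1.87 to 3.95 CPM in normal stroma, which covers counting error only. As a mark of stroma, 7 fibroblast genes were read. Their summed level was 420 to 6887 normalized CPM (with the library size adjusted by the TMM method) in AAS and 1209 to 20782 in normal stroma. The sum does not show each gene. In the AAS sample of pair 10, DCN, FBLN1 and MFAP5 were at 0, while COL1A1 had 255 normalized CPM. The epithelial genes CDH1 and EPCAM were also read in every sample, at no less than 22.9 and 14.0 normalized CPM. In the AAS sample of pair 10 they had 220 and 14.0.

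A pair of AAS libraries stood apart. In the AAS sample of pair 7, a single gene took 84.9% of the counts, and 93673 counts were left for all others. The AAS sample of pair 10 had the lowest total, 419770 counts, with 2559 genes at 10 counts or more. A low total was not particular to it. The AAS samples of pairs 15 and 8 had 480753 and 499178 counts, with 3056 and 6419 genes at 10 counts or more. The AAS samples of pairs 7 and 10 were also the lowest in their group by mean rank over the 4 genes. Pair 10 was checked for exchanged labels, because COL4A1 and EGFLAM ran against the other pairs there. Of 85 genes called between AAS and normal stroma without pair 10, 72 (84.7%) had the same direction in pair 10, against 78.8% to 97.3% in the other pairs. Among the 31 called higher in AAS, 22 were also higher in pair 10, the lowest share of any pair. The same count was 26 of 36 in pair 15 and 25 of 26 in pairs 11 and 13. Of the 54 called lower, 50 were also lower in pair 10, so the pooled share rests mostly on the lower genes. Results that rest on either pair are given with and without it.

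Normalized levels of all 4 genes were higher in AAS than in normal stroma in 10 or 11 of 12 pairs. In a few pairs the direction depended on the TMM scaling, as given below. COL4A1 and EGFLAM had the largest fold changes and the largest dependence on 1 pair, while COL4A2 and COL15A1 had smaller and steadier ones. The groups overlapped for each gene. In bulk stroma, fewer cells of a type and less RNA per cell cannot be told apart, and this holds for every level below.

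**Figure D1:**
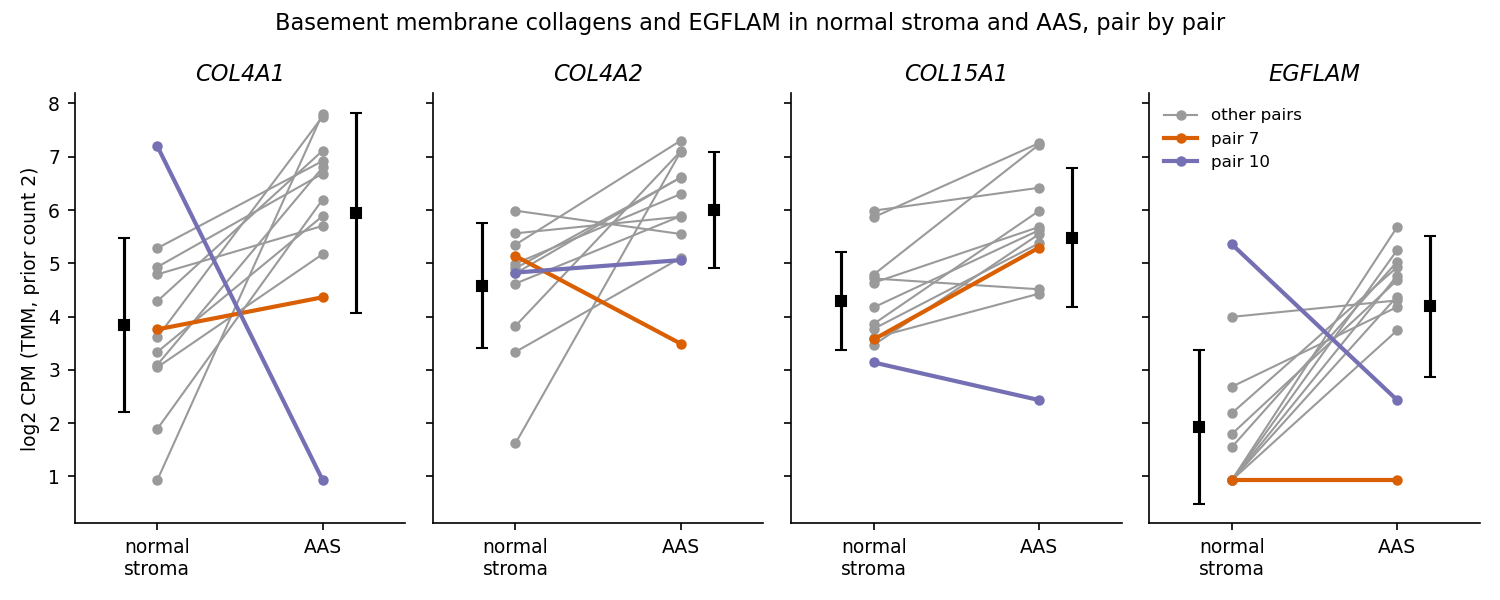
Log2 CPM (TMM-normalized, prior count of 2) of COL4A1, COL4A2, COL15A1 and EGFLAM in the normal stroma and AAS sample of each of 12 pairs, joined by a line, with the group mean and SD as a square and bar. Most lines rise from normal stroma to AAS, whereas pair 10 falls for COL4A1, COL15A1 and EGFLAM, and pair 7 falls for COL4A2 and stays at 0 counts for EGFLAM.

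COL4A1, the gene of the collagen IV α1 chain, had a lowest, median and highest level of 0, 86.2 and 223 normalized CPM in AAS. In normal stroma the lowest, median and highest levels were 0, 11.0 and 145 normalized CPM. The highest normal stroma value belonged to pair 10, and the next highest was 37.1, so that 2 AAS samples lay above all normal stroma samples and 9 lay above all but that one. Both zeros were single samples, the AAS sample of pair 10 and the normal stroma sample of pair 6. Means were 94.6 ± 71.1 in AAS and 24.9 ± 39.5 in normal stroma (SD, n = 12 each). AAS had the higher normalized level in 11 of 12 pairs. One of these, pair 7, rested on 2 counts in AAS and 7 in normal stroma, and was higher in AAS at 18.7 against 11.6 normalized CPM but lower before the TMM scaling, at 3.23 against 7.37 CPM. The largest difference was in pair 6, with 262 counts in AAS and 0 in normal stroma, and pair 13 had 317 and 16. Pair 10 was the exception, with 0 counts in AAS and 126 in normal stroma. That 1 normal stroma sample held 42.6% of the 296 COL4A1 counts of its group (95% exact binomial confidence interval 36.9 to 48.4%). The interval covers counting error and not the spread between dogs.

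The log2 fold change of COL4A1 was 1.95 (standard error 0.59), a 3.86-fold higher level in AAS. It was 2.62 (standard error 0.70) with the pair number as a block, which compares each AAS sample with the normal stroma of the same dog. Without pair 10 it was 2.88 (standard error 0.49), or 7.37-fold, and leaving out any other single pair gave no more than that, with a lowest value of 1.63.

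COL4A2, the gene of the collagen IV α2 chain, ranged from 9.34 to 156 normalized CPM in AAS with a median of 67.1. In normal stroma it ranged from 1.17 to 61.6 with a median of 27.3. It was read in all 24 samples, although from 1 count only in the AAS sample of pair 7 and the normal stroma sample of pair 6. Of the 12 AAS samples, 6 lay above the highest normal stroma sample. The means were 77.3 ± 47.0 and 27.8 ± 16.4 (SD, n = 12 each). AAS had the higher normalized COL4A2 level in 10 of 12 pairs and the lower one in pair 4 (44.9 against 61.6) and pair 7 (9.34 against 33.3). Pair 10, which set the spread of COL4A1, had 31.5 in AAS and 26.5 in normal stroma, from 9 and 23 counts. The direction in pairs 4 and 10 turned on the TMM scaling. Before it, pair 4 was higher in AAS (34.0 against 26.2 CPM) and pair 10 lower (21.4 against 25.5 CPM). The log2 fold change was 1.52 (standard error 0.40), a 2.86-fold higher level, and moved little with the block (1.49, standard error 0.47) or without pair 10 (1.58, standard error 0.42).

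COL15A1 ranged from 3.50 to 151 normalized CPM in AAS with a median of 46.1, and from 6.91 to 61.6 in normal stroma with a median of 14.4. Most AAS samples fell inside the range of normal stroma, and 3 lay above it. Means were 58.9 ± 47.0 in AAS and 22.3 ± 18.3 in normal stroma (SD, n = 12 each). The highest AAS samples were those of pair 15 (151) and pair 6 (148), and the normal stroma samples of pair 4 (61.6) and pair 15 (56.4) were the highest of their group. AAS had the higher COL15A1 level in 10 of 12 pairs and the lower one in pair 10 (1 count against 6) and pair 12 (20.9 against 24.4). Pair 7 had 4 counts in AAS and 6 in normal stroma, which were 37.3 and 9.98 normalized CPM but 6.47 and 6.32 CPM before the TMM scaling. The log2 fold change was 1.43 (standard error 0.45), or 2.69-fold, with 1.32 (standard error 0.37) under the block and 1.45 (standard error 0.42) without pair 10. Within pairs, its difference had the smallest spread of the 4 genes, with a mean of 1.18 ± 0.96 on the log2 CPM scale (SD, n = 12 pairs), against 2.10 ± 3.15 for COL4A1, 1.42 ± 1.81 for COL4A2 and 2.26 ± 2.20 for EGFLAM.

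EGFLAM was close to the limit of detection in normal stroma. It had 0 counts in 6 of 12 normal stroma samples and no more than 3 in 9 of them, with a lowest, median and highest level of 0, 0.511 and 39.1 normalized CPM. In AAS the lowest, median and highest levels were 0, 21.3 and 49.3 normalized CPM, and 9 of 12 samples held 10 counts or more. Again the highest normal stroma sample was that of pair 10, followed by pair 6 at 14.0. Only 1 AAS sample exceeded the former, and 9 exceeded all normal stroma samples other than it. Means were 21.8 ± 13.7 in AAS and 5.24 ± 11.4 in normal stroma (SD, n = 12 each). In 10 of 12 pairs EGFLAM was higher in AAS, most in pair 5 with 78 counts against 0. Pair 10 had 1 count in AAS and 34 in normal stroma, and pair 7 had 0 in both. The normal stroma sample of pair 10 held 56.7% of the 60 EGFLAM counts of its group (95% exact binomial confidence interval 43.2 to 69.4%, counting error only), but 6.82% of those of COL4A2 and 2.35% of those of COL15A1.

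The log2 fold change of EGFLAM was 2.10 (standard error 0.76), or 4.28-fold. With the block it was 3.69 (standard error 0.99), or 12.9-fold, and without pair 10 it was 3.40 (standard error 0.74), or 10.6-fold. In the 6 normal stroma samples without a count, 3 counts stand for 2.66 to 3.71 CPM before the TMM scaling, so a level under this was not detectable there.

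**Figure D2:**
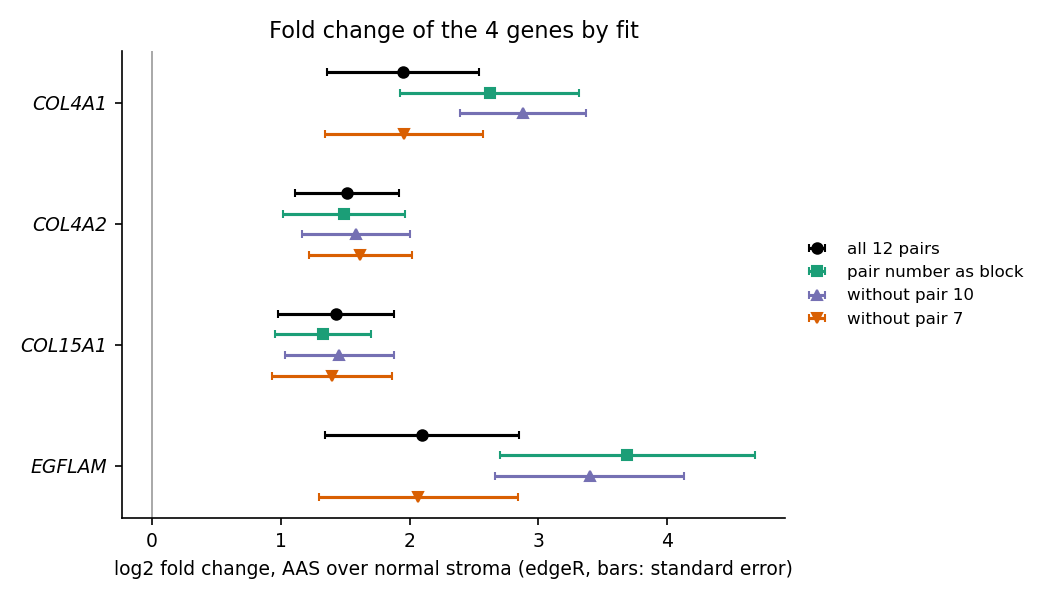
Log2 fold change of AAS over normal stroma for each of the 4 genes, with its standard error as a bar, from edgeR over all 12 pairs, with the pair number as a block, without pair 10 and without pair 7. COL4A2 and COL15A1 stay between 1.32 and 1.62 in these fits, whereas COL4A1 moves from 1.95 to 2.88 and EGFLAM from 2.10 to 3.40 when pair 10 is left out.

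A gene was called where its adjusted p-value was under 0.05 and its log2 fold change exceeded 1 in size. Of all 4544 genes, 0.616% were called higher in AAS, and of the 4 genes 1, COL4A2, was. With the pair number as a block, 0.638% of all genes and 2 of the 4, COL4A1 and EGFLAM, were called higher. Without pair 10, 0.648% of all genes and 3 of the 4, all but COL15A1, were called higher. The call of COL4A2 was lost in 7 of the 12 fits that left out 1 pair (without pair 3, 5, 6, 9, 11, 12 or 13), and COL15A1 was called in none of these. The calls therefore changed with the block and with single pairs, and because the genes were chosen for this comparison, nothing else is read from them.

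In pair 14, left out for depth, the AAS sample held 19 counts of COL4A1, 22 of COL4A2, 104 of COL15A1 and 12 of EGFLAM. Its normal stroma sample held 1, 0, 3 and 0 counts. All 4 levels were thus higher in AAS in this pair too, but 3 counts of its shallow normal stroma sample stand for 35.8 CPM, and only COL15A1, at 104 normalized CPM in AAS, lay clearly above that. With all 13 pairs the direction of each gene remained as it was.

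Whether the 4 genes varied together from dog to dog was asked within AAS, within normal stroma and over the within-pair differences, 18 relations in all, on log2 CPM. The choice of the genes did not use these relations within a group. The relation of the collagen IV chains kept its size in AAS and over the differences when samples were left out, although it did not pass after adjustment over the 18 relations. In AAS their Pearson r was 0.66 (permutation test with 100000 resamples, two-sided, p = 0.0287, adjusted p = 0.154) and Spearman's rho 0.77 (permutation p = 0.00494, adjusted p = 0.0551), n = 12 samples. Over the within-pair differences r was 0.64 (permutation p = 0.0397, adjusted p = 0.154) and rho 0.76 (permutation p = 0.00612, adjusted p = 0.0551). Leaving out the 2 samples farthest from the median of COL4A1 gave r of 0.70 and 0.74. Without pair 7, r was 0.71 in AAS (permutation adjusted p = 0.0450) and 0.67 over the differences (permutation adjusted p = 0.154). Without pair 10, a choice made after seeing the data, r was 0.84 in AAS (permutation adjusted p = 0.0114) and 0.87 over the differences (permutation adjusted p = 0.0110). These higher values rested in part on few samples. When the 2 farthest were left out as well, r was 0.64 in AAS (pairs 4 and 7 out) and 0.62 over the differences (pairs 6 and 7 out). In normal stroma r was 0.51 (permutation adjusted p = 0.224) and fell to 0.20 without the 2 farthest samples. Gene models of COL4A1 and COL4A2 overlap in the dog gene table used here, which is of another build than the counted transcripts. The libraries were stranded, but whether the strand was used in counting is not given in the sources used here. If the counted transcripts overlap too, ambiguous reads could be shared between both genes.

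The balance of the chains was compared as the log2 ratio of COL4A1 to COL4A2, which is not corrected for transcript length, so that only its shift between groups can be read. It was -0.06 ± 1.41 in AAS and -0.73 ± 1.45 in normal stroma (SD, n = 12 each). Within pairs the ratio was higher in AAS in 10 of 12, lower by 0.20 in pair 3 and by 6.50 in pair 10, with a mean difference of 0.68 ± 2.43 (SD, n = 12 pairs). Without pair 10, a choice made after seeing the data, the mean difference was 1.33 ± 0.93 (SD, n = 11 pairs). No test was run on it, since both genes were chosen for their difference between the groups.

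COL4A2 and EGFLAM in AAS gave the only relation that passed, with r of 0.83 (permutation p = 0.0018, adjusted p = 0.0324). Its rho of 0.64 did not pass (permutation p = 0.0300, adjusted p = 0.180). It rested largely on the AAS sample of pair 7, in which COL4A2 had 1 count and EGFLAM 0: without that pair r was 0.61 (permutation adjusted p = 0.154), without pair 10 it was 0.82 (permutation adjusted p = 0.0589), and without both 0.43. Over the within-pair differences r was 0.07 (permutation adjusted p = 0.814). COL4A1 with COL15A1 and COL4A1 with EGFLAM had r of 0.62 and 0.63 in AAS (permutation adjusted p = 0.154 each), which became -0.14 and -0.02 without the 2 farthest samples, those of pairs 7 and 10. These relations therefore rest on the AAS samples of these pairs. COL15A1 had no relation with COL4A2 or EGFLAM that passed, with r between -0.29 and 0.43.

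**Figure D3:**
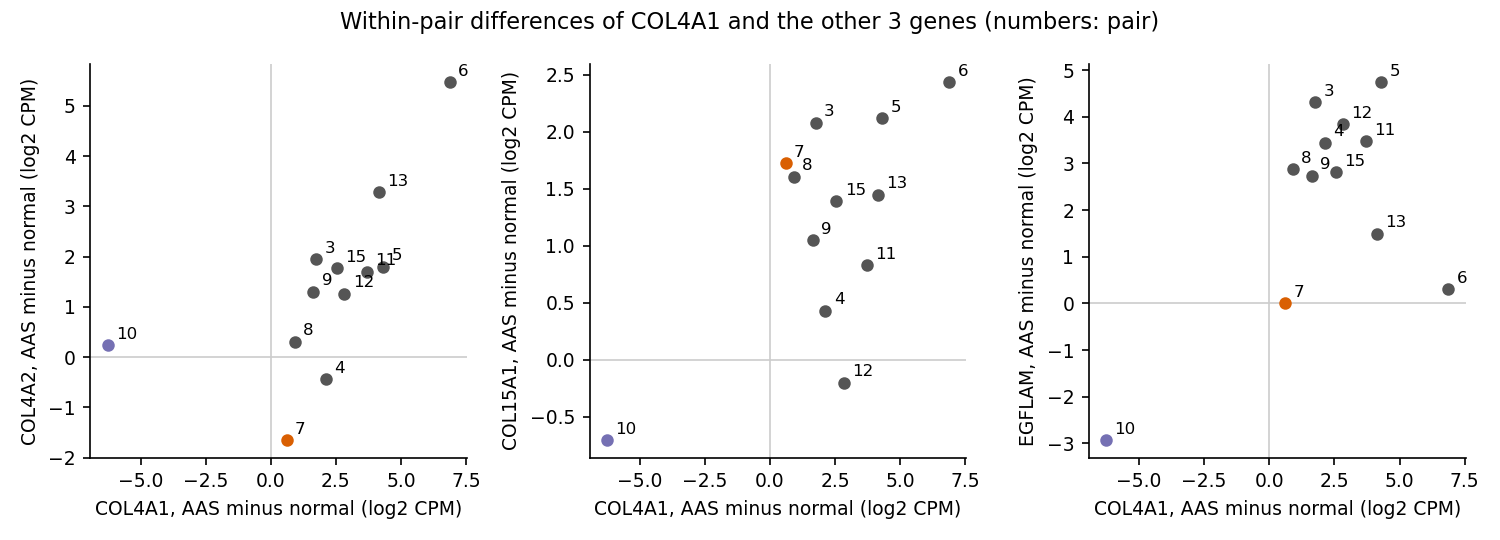
Within-pair difference (AAS minus normal stroma, log2 CPM) of COL4A1 on the horizontal axis against that of COL4A2, COL15A1 and EGFLAM on the vertical axes, 1 point per pair with its number. For COL4A2 the points other than pair 10 run along a rising line (r = 0.87 without it, 0.62 also without pairs 6 and 7). For COL15A1 and EGFLAM pair 10 at the lower left stands apart from a cloud without a clear slope.

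Differences within pairs were also set against the age of the dog and the time between excision and sampling, 8 relations in all. None passed by r (smallest adjusted permutation p = 0.655). The strongest was that of EGFLAM with the age of the dog, with r of -0.49 and rho of -0.48 (permutation p = 0.105 and 0.112, adjusted p = 0.655 and 0.761, n = 12 pairs), and r of -0.63 without the 2 pairs farthest from the median age.

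For each of the 4, the genes most alike across the 24 samples were taken after the group means were subtracted, from 1855 other tested genes with a symbol. These correlations are descriptions over samples that share depth and RNA quality. COL4A1 was closest to SEMA3D (r = 0.74), PRR7 (0.74), the macrophage scavenger receptor CD163 (0.72), FAM185A (0.72) and the microfibril gene FBN1 (0.70). Without pair 10, CD163 remained at 0.70, the others fell to between 0.55 and 0.58, and COL4A2 rose from rank 42 (r = 0.59) to rank 2 (r = 0.71). COL4A2 was closest to the lysosomal enzyme gene PPT1 (0.77), the endoplasmic reticulum chaperone CANX (0.71), SELENOO (0.70), MAP3K12 (0.70) and CAPN2 (0.68), and these lay between 0.68 and 0.80 without pair 10. EGFLAM was closest to FAM3C (0.73), NBEAL2 (0.69), SKI (0.68), SLIT3 (0.67) and AP2A1 (0.67), all between 0.68 and 0.80 without pair 10. COL15A1 was closest to CAPNS1 (0.74), CLCA1 (0.73), the atypical cadherin FAT4 (0.71), the fibril-associated collagen COL14A1 (0.67) and CD248 (0.67), a marker of fibroblasts and pericytes. Its list depended more on pair 10, without which these values were 0.31 to 0.60. For COL4A1, EGFLAM ranked 185 (r = 0.46) and COL15A1 729 (r = 0.23) over all 24 samples, and 972 (r = 0.10) and 1486 (r = -0.12) without pair 10.

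Other genes of the basement membrane were taken from lists of 77 genes for its structure, receptors, collagen IV synthesis and turnover. Of these, 28 could be matched to an identifier and 24 were tested. Identifiers were known only from the study's own gene tables, which name changed genes more often. The shares over all genes beside these lists and the markers below are therefore not like for like, and nothing is read from the difference. No gene was called higher in AAS by edgeR's quasi-likelihood test, with or without the pair block or by DESeq2, and 1 was called lower, or 3 with the block (over all genes, 1.19% and 1.89% were called lower). Without pair 10, 1 was called lower, against 1.13% of all genes. At an unadjusted p below 0.05, 4 of the 24 were higher and 6 lower, against 4.27% and 6.23% of all genes. Their median log2 fold change was -0.23, against 0.01 over all tested genes, and 10 of 24 were above 0.

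Among 10 tested structural genes none was called, with a median log2 fold change of -0.21, and 4 were above 0. The largest in size, named after the values were seen, was that of HMCN2, at -1.78 (standard error 0.70, edgeR's quasi-likelihood test, adjusted p = 0.276). With the block it was -2.64 (adjusted p = 0.0865). The highest expressed were NTN4, which encodes a laminin-related netrin, at a log2 fold change of -0.22 (adjusted p = 0.823, standard error 0.19), and HMCN1, which encodes hemicentin-1, at -0.26 (adjusted p = 0.683, standard error 0.17). The laminin α chain genes and the laminin-binding NID1, named here after their values were seen, differed in sign. LAMA1 had a log2 fold change of 0.69 (adjusted p = 0.436), LAMA2 of 0.86 (adjusted p = 0.430), LAMA4, the chain of vessel walls, of -1.16 (adjusted p = 0.220) and NID1 of -0.19 (adjusted p = 0.966). With the block these were 0.69, 0.64, -1.57 and -0.60, and none was called. COL18A1, the closest relative of COL15A1, had 0.64 (standard error 0.69, adjusted p = 0.875), also chosen after its values were seen.

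Of 6 receptor genes none was called without the block. The integrin β1 gene ITGB1 had a log2 fold change of -0.25 (adjusted p = 0.760, standard error 0.18). DDR2, a receptor for fibrillar collagen, had -1.05 (standard error 0.38, adjusted p = 0.210) and was called lower with the block, at -1.31 (adjusted p = 0.0427), but not with the block and without pairs 7 and 10 (adjusted p = 0.0940). Of 4 tested genes of collagen IV synthesis and cross-linking none was called. The prolyl hydroxylase genes P4HA2 and P4HA1 had log2 fold changes of 0.18 (adjusted p = 0.840, standard error 0.17) and 0.65 (adjusted p = 0.700, standard error 0.44).

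All 4 tested genes of basement membrane turnover had negative log2 fold changes, with a median of -1.15. TIMP3, an inhibitor of metalloproteinases that is bound to the matrix, fell from a median of 593 normalized CPM in normal stroma (344 to 844) to 126 in AAS (65.4 to 486), with the lower level in AAS in all 12 pairs. Its log2 fold change was -1.64 (standard error 0.27, edgeR's quasi-likelihood test, adjusted p = 0.000223). MMP2, the gene of a gelatinase that cleaves collagen IV, had -1.33 (standard error 0.40, adjusted p = 0.0890), was lower in all 12 pairs and was called with the block, at -1.75 (adjusted p = 0.00407).

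**Figure D4:**
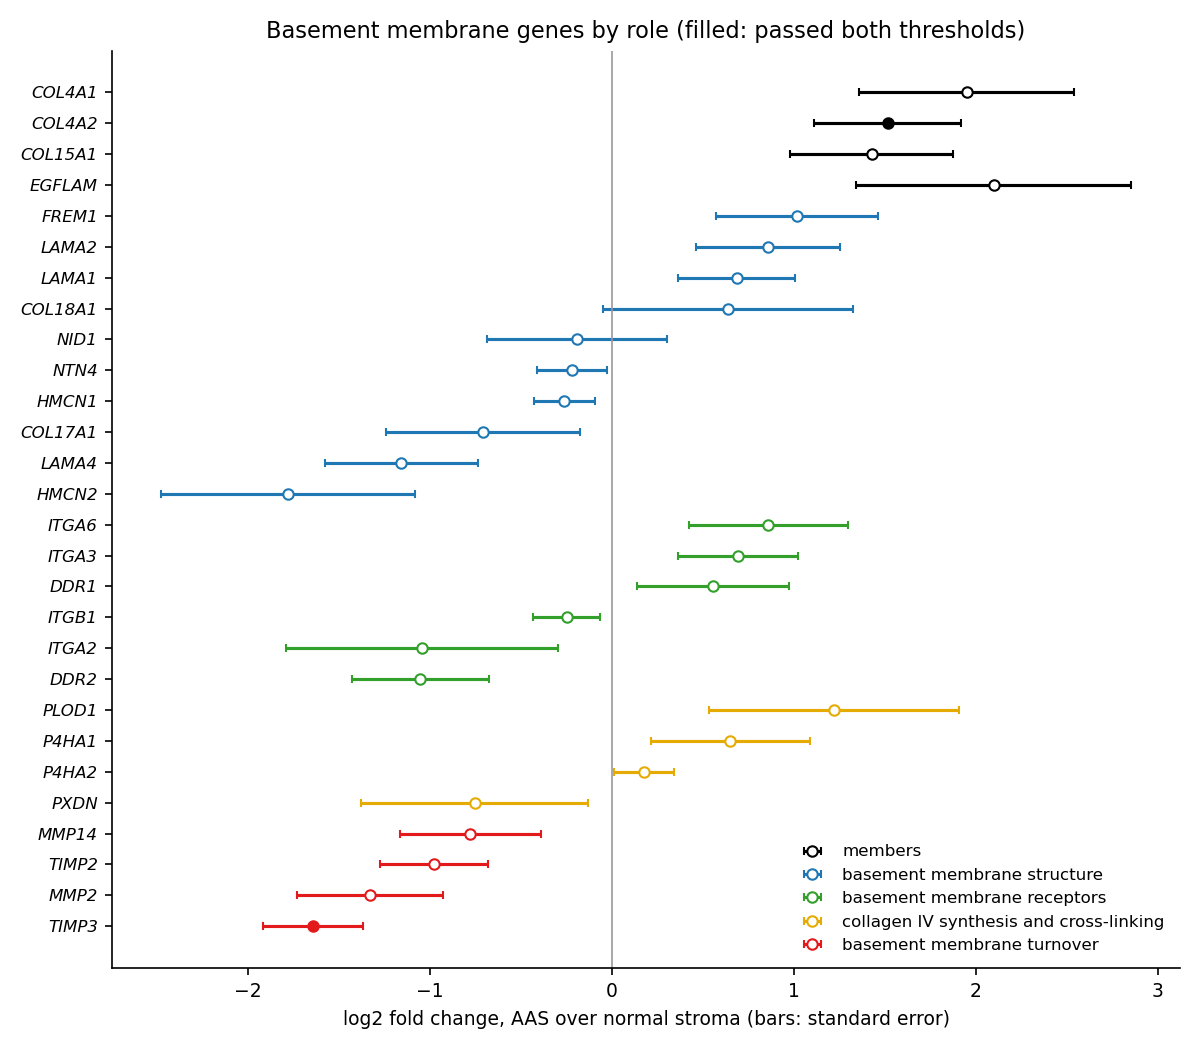
Log2 fold change of AAS over normal stroma with its standard error for the 4 genes and the 24 tested genes of the basement membrane lists, coloured by role, filled where both thresholds were passed. COL4A1, COL4A2, COL15A1 and EGFLAM lie at 1.43 to 2.10, the other genes lie on both sides of 0, and the 4 turnover genes lie below it, with TIMP3 filled at -1.64.

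Cell types that make or rest on basement membrane were followed by their markers, as far as identifiers were known. For endothelium, 2 of 16 markers could be matched, KDR and TEK, and their summed level was 0 to 63.4 normalized CPM in AAS (median 44.3) and 9.22 to 89.2 in normal stroma (median 47.7). KDR, the VEGF receptor, had a log2 fold change of -0.44 (adjusted p = 0.850, standard error 0.43). For pericytes and smooth muscle, 2 of 12 were matched, ACTA2 and MYL9. ACTA2 is not particular to these cells. The study describes strong staining of its protein, α-smooth muscle actin, in myoepithelial cells and proposes activated fibroblasts as a source in AAS. The level of these genes is therefore not credited to a single cell type. Their sum was 177 to 905 in AAS (median 353) and 159 to 463 in normal stroma (median 246) and was higher in AAS in 10 of 12 pairs, while neither gene passed (log2 fold change 0.94, adjusted p = 0.444, and 0.59, adjusted p = 0.157). For luminal epithelium, 3 of 11 were matched, with a sum of 95.5 to 292 in AAS (median 216) and 90.3 to 238 in normal stroma (median 154), higher in AAS in 8 of 12 pairs. CDH1 and EPCAM had log2 fold changes of 0.54 (adjusted p = 0.438) and 0.07 (adjusted p = 0.983). The part of these cells in the 4 results was not tested. None of 7 myoepithelial markers had an identifier, and of 7 adipocyte markers only LEP did, at 6.76 normalized CPM or less. Of the Schwann cell markers 3 of 5 were matched, with sums of 0 to 68.7 in AAS and 2.12 to 84.2 in normal stroma. SOX10 was the one tested (log2 fold change 1.09, adjusted p = 0.579).

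Of 9 fibroblast markers 7 were tested, of which 2 were called lower and none higher (over all genes, 1.19% were called lower), and their summed level had a median of 2040 normalized CPM in AAS against 4790 in normal stroma and was higher in AAS in 2 of 12 pairs. DCN (log2 fold change -1.96, adjusted p = 0.00996) and FBLN1 (-1.71, adjusted p = 0.00508) were called lower, COL1A2 was called lower with the block (-1.44, adjusted p = 0.00204, against -1.36 and 0.0532 without it), and COL1A1 and COL3A1 had -1.26 (adjusted p = 0.301) and -1.03 (adjusted p = 0.430). PDGFRA had -0.44 (adjusted p = 0.737) and MFAP5 1.73 (adjusted p = 0.475), or -1.12 with the block (adjusted p = 0.750), both named after their values were seen. Of 9 leukocyte markers, 2 were tested. CD74, the invariant chain of class II histocompatibility molecules, rose by a log2 fold change of 2.18 (adjusted p = 0.000347) in all 12 pairs, and the macrophage receptor gene CSF1R had -0.84 (adjusted p = 0.665). In the AAS sample of pair 10, the fibroblast sum was 420 and the luminal epithelial sum 241, against 1427 and 95.5 in its normal stroma partner. Their part in the levels of COL4A1 and EGFLAM in that pair was not tested.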

How the data were processed

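The authors captured AAS and normal stroma by laser microdissection, made stranded total RNA libraries with a pico-input kit, and quantified transcripts with kallisto 0.44.0 against Ensembl transcripts of the CanFam3.1 genome with sequence bias correction, followed by summing per gene. They deposited estimated counts per gene for 18466 genes and 26 samples, without normalization. The values were whole numbers, so rounding changed none, and no 2 samples were identical. Kallisto shares ambiguous reads between similar transcripts, which can blur genes that overlap. Group and pair number came from the labels, and every dog gave 1 sample of each group, so samples of a group are separate animals.

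Low counts were removed by filterByExpr and library sizes scaled by TMM. Groups were then compared by edgeR 4.0.16 (quasi-likelihood test, R 4.3.3) without a term for the pair, since the study's methods name none, and p-values were adjusted over all tested genes by the Benjamini-Hochberg method. All adjusted p-values of genes come from this fit unless the block is named. Log2 CPM carries a prior count of 2, so that differences of genes near 0 counts depend on it. Permutation tests used scipy 1.17.1 in Python 3.11.15. Both were tested on simulated data. The samples of a pair come from the same dog, and their deviations from the group means had a mean correlation of 0.125 (-0.0255 to 0.396), against -0.00597 between pairs.

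Gene symbols came from the study's supplementary tables, which name 3302 identifiers, more often those of changed genes. Most marker and basement membrane genes therefore have no identifier here and are not analysed. The dog gene table used for overlaps is of assembly UU_Cfam_GSD_1.0, another build, so no coordinates or sequences are given. The 4 genes, the lists and the tests were chosen with earlier results of these data known. Named genes are these 4, every called gene and the 2 highest expressed tested genes of each list, and the 5 closest genes by correlation. Alternatives were the pair block, DESeq2 1.42.0 with and without it, RLE normalization, no filter, all 13 pairs, the 10 most counted genes left out, prior counts of 0.5 and 5, and each pair left out. Those without pair 10 in the relations between genes and with age and in the collagen IV ratio, and without pairs 7 and 10, were added after seeing the data.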

Additional observations from a re-analysis of the deposited data

Results flagged for a closer look

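The AAS sample of pair 14, which was left out of the comparison of 12 pairs and used only with all 13, held 104 normalized CPM of COL15A1 from 104 counts, above the highest of the 12 normal stroma samples, 61.6. The former value was scaled with all 13 pairs and the latter with 12. The sample was noted because it holds a signal in data outside the comparison that exceeds the level in the control samples. The normal stroma sample of the same pair had 22.2 normalized CPM from 3 counts.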

How the results depend on the processing

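All 4 genes kept their direction under every alternative that gave a value. EGFLAM has none without pair 6, where it did not pass the filter on low counts. When the other pairs, and for the other genes each pair, were left out in turn, log2 fold changes ran from 1.63 to 2.88 for COL4A1, 1.29 to 1.72 for COL4A2, 1.22 to 1.59 for COL15A1 and 1.80 to 3.40 for EGFLAM. Of the 4 genes, 1 was called, against 2 with the block, 2 with DESeq2 and 4 with DESeq2 and the block. Without a filter on low counts 4 were called, and 0 to 3 when 1 pair was left out. The 4 genes were chosen for this same comparison. Their calls therefore show only how a call depends on the processing, and nothing else is read from them. Of all genes, 28 were called higher and 54 lower. With the replicate block (the pair number) these were 29 and 86, with DESeq2 50 and 84, with DESeq2 and the replicate block 72 and 155, and without a filter on low counts 1258 and 432. Leaving out 1 pair gave 24 to 36 higher and 45 to 63 lower. In the basement membrane lists, 0 genes were called higher and 1 lower. Without the filter these were 1 and 5. Called lower were 3 with the paired fit (replicate block), 2 with DESeq2, 6 with DESeq2 and the block, 2 with all 13 pairs, 2 without pairs 7 and 10 with the block, and 1 to 3 when 1 pair was left out (2 without pair 6, 3 without pair 9). The block changed no other call named in the text than those given there.

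Of the 18 relations between the 4 genes, 1 passed by r. Without pair 10 there were 2 and without pairs 7 and 10 there were 0, both settings chosen after seeing the data. Without pair 7 there was again 1, but it was COL4A1 with COL4A2 in AAS in place of COL4A2 with EGFLAM. By rho, 0 passed, against 2 with a prior count of 5 and 1 with all 13 pairs, all of them COL4A1 with COL4A2. Several r changed sign. Without pair 10, COL4A1 with COL15A1 in AAS became -0.00447, COL4A1 with EGFLAM became -0.374 in normal stroma and -0.153 over the differences, COL4A2 with EGFLAM became -0.125 over the differences, and COL15A1 with EGFLAM became -0.0720 in AAS, 0.00263 in normal stroma and -0.314 over the differences. Without pairs 7 and 10, COL4A1 with COL15A1 became -0.144 in AAS, COL4A1 with EGFLAM became -0.0218 in AAS, -0.372 in normal stroma and -0.537 over the differences, COL4A2 with COL15A1 became -0.177 in AAS, COL4A2 with EGFLAM became -0.686 over the differences, and COL15A1 with EGFLAM became -0.526 in AAS and -0.278 over the differences. Without pair 7, COL4A2 with EGFLAM became -0.126 over the differences, and COL4A2 with the age of the dog and of the sample became 0.0881 and 0.253. Without pairs 7 and 10 these became 0.250 and 0.304, and COL4A1 with the age of the dog became 0.174. None of these age relations passed. These settings also have fewer samples, and the causes of the changes were not tested. Low counts limit EGFLAM most, since 9 of 12 normal stroma samples held 3 counts or fewer.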
